A study of Mus musculus with 23 samples.

Results

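The genes described here are 33 markers of the oligodendrocyte lineage, taken by symbol from a table of 24411 genes counted in astrocytes isolated from mouse cerebral cortex. They comprise 26 genes of myelin and of oligodendrocytes and 7 genes of oligodendrocyte precursors. All 33 symbols were found, and all 33 passed the filter on low counts in every comparison. The study asked how loss of ALDH7A1, an enzyme that degrades reactive aldehydes, and a diet with sulforaphane (SFN), which acts through the NRF2 pathway, changed the RNA of astrocytes. Cortex was dissociated with papain and cells were pulled down on magnetic beads against ACSA-2, an antigen of the astrocyte membrane, a procedure called MACS, and the 23 libraries are labelled as astrocytes of male mice at postnatal day 70.

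All 4 groups carried Aldh7a1-Flox/Flox and all received 4-hydroxytamoxifen at postnatal days 3 to 4. ConAstro mice (4 libraries) had no Cre and ate a control diet. cKOAstro mice (7 libraries) also carried Slc1a3-CreER/+, a tamoxifen-inducible Cre recombinase at 1 allele of the astrocyte glutamate transporter gene Slc1a3, so the knockout groups differ from their controls at Slc1a3 as well as at Aldh7a1. SFN-fed ConAstro (5 libraries) and SFN-fed cKOAstro (7 libraries) had the same genotypes and were given SFN from postnatal day 21. The study's methods count n as animals per condition for RNA-seq, while the labels name no animal for a library, so each library was taken as 1 mouse.

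Oligodendrocytes wrap axons in myelin, a stack of membrane rich in galactolipids and in a small set of structural proteins. They arise from precursor cells that persist in the adult cortex, carry platelet-derived growth factor receptor alpha and the proteoglycan NG2 as surface markers, and pass through a short committed stage before myelin genes are switched on by SOX10 and MYRF. Mature oligodendrocytes, committed cells and precursors can therefore be read from partly separate genes. In an astrocyte isolate these RNAs come with the astrocyte RNA, and in bulk RNA fewer cells of a type and less RNA per cell cannot be told apart.

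Libraries differed in more than their group. Depth ran from 46890715 to 391701247 counts. It was 74771451 to 84049525 in ConAstro and 107847897 to 391701247 in cKOAstro, so on the control diet depth and genotype cannot be told apart. Library names fall into 2 kinds: 6 have names beginning with Astro (cKOAstro replicates 2 and 4, SFN-fed ConAstro replicate 1, SFN-fed cKOAstro replicates 4, 5 and 6) and 17 have numbers, and what the naming stands for is not given. ConAstro has no Astro-named library. All its names share a first number, found also in SFN-fed cKOAstro but in no library of cKOAstro or SFN-fed ConAstro. Comparisons of ConAstro with those groups cannot tell the group from the first number, also with numbered libraries only. Aldh7a1 was at 42.8 to 77.7 CPM (counts scaled to library size with factors from the trimmed mean of M values) in the knockout groups and at 177 to 224 CPM in the controls, with 2 exceptions. SFN-fed ConAstro replicate 1 held 55.2 CPM and SFN-fed cKOAstro replicate 2 held 221 CPM, against their labels. cKOAstro replicate 2, labelled male, held 1536 CPM of Xist, at or below 0.705 CPM in every other library. The astrocyte list of 14 genes summed to between 20066 and 37181 CPM, and the 26 oligodendrocyte genes to between 21179 and 49481 CPM, so RNA of myelinating cells was abundant in every library labelled as astrocytes.

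Promoters are shown for 5 genes on which the comparison of Astro-named with numbered libraries turned: Mobp, Cldn11, Vcan and Lhfpl3, which were called there, and Opalin, whose difference had the opposite sign to the other oligodendrocyte genes. Mbp, also called there, is not shown. RefSeq promoter windows (GRCm38.p6) were found for 22 of the 33 genes. Each run below is the 250 bases upstream of the annotated start, read 5′ to 3′ on the strand of the gene, with capitals on any ACAAAG or ACAATG, letters read by SOX factors such as SOX10, searched on both strands (a match on the other strand reads CTTTGT or CATTGT). 
Mobp, chr9:120149492-120149741, plus strand: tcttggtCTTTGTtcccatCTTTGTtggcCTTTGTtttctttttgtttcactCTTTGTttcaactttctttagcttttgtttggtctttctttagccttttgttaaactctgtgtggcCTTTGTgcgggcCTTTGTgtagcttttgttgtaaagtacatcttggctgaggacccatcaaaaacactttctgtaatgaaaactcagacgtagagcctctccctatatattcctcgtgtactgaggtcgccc
Opalin, chr19:41077114-41077363, minus strand: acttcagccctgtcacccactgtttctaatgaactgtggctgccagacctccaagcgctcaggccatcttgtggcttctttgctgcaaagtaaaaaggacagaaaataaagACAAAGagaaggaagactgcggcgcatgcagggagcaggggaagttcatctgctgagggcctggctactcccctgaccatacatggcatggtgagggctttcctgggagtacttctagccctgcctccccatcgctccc
Cldn11, chr3:31149670-31149919, plus strand: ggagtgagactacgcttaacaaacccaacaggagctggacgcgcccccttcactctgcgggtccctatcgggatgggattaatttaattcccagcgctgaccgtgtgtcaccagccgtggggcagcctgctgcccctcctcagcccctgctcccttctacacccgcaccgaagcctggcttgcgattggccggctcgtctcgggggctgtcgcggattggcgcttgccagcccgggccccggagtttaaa
Vcan, chr13:89742513-89742762, minus strand: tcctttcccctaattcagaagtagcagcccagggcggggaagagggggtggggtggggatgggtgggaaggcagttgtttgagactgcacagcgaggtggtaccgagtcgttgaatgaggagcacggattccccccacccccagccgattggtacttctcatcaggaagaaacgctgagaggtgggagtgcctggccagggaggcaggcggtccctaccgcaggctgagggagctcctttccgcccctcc
Lhfpl3, chr5:22745804-22746053, plus strand: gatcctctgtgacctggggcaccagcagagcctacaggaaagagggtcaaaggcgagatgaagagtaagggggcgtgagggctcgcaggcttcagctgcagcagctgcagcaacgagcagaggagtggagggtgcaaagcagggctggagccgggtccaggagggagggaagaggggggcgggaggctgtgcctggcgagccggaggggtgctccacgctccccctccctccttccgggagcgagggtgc
Mobp held 6 matches, Opalin held 1, 139 bases upstream of the start, and the other 3 held none. Among the 28 windows of the 22 genes, 9 held a match (32.1%), against 25.2% of all 32851 mouse promoter windows. All 9 lay in oligodendrocyte genes, which had 23 windows, while the 5 windows of precursor genes held none. Windows 1 and 2 of Mag overlap and share a single match, which was counted in each. The 5 precursor windows are too few to be told from the share of all windows. A match is a run of letters only, and its absence says nothing of the factor.

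Levels between genes were compared as CPM per kilobase of exon, as medians over the 23 libraries. The length joined all annotated exons of a gene, 8469 bases for Mbp and 3639 for Cnp, and the order depends on this choice. Cnp, an enzyme of non-compact myelin, was highest at 874 CPM per kilobase, followed by the iron carrier Trf (849), the myelin proteolipid Mal (789) and the tight-junction claudin Cldn11 (784). Mag, a glycoprotein of the membrane that faces the axon, was at 483 CPM per kilobase and Mbp, which holds the cytoplasmic faces of the sheath together, at 374. The transcription factors lay lower, from 352 CPM per kilobase for Olig1 and 111 for Sox10 to 5.58 for Nkx2-2. The precursor genes took 7 of the 9 lowest places, from 9.96 CPM per kilobase for Cspg4, the NG2 proteoglycan, to 1.06 for the sialidase Neu4. As a share of the summed CPM of the 33 genes, the precursor genes made up 0.249% to 1.30% of a library.

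The range over the 23 libraries differed between genes. Mbp, at a median of 3168 CPM, ran from 2575 to 5743 CPM, a 2.23-fold range. Mog, the outermost glycoprotein of the sheath, ran from 396 to 1021 CPM (2.57-fold), and Tspan2, a tetraspanin, had the narrowest range of the 33 genes at 1.96-fold. Opalin, low in cKOAstro replicate 2 and SFN-fed cKOAstro replicate 5, ran from 74.3 to 356 CPM (4.79-fold), and the widest range of an oligodendrocyte gene was that of Enpp6, a choline phosphodiesterase, at 4.86-fold. Among the precursor genes, Vcan (3.35-fold), Cspg4 (3.43-fold) and Gpr17 (4.20-fold) lay within that range and Lhfpl3 (6.05-fold) above it. The widest ranges were those of 3 precursor genes: Pdgfra, the receptor by which precursors respond to platelet-derived growth factor, spanned 6.80 to 73.5 CPM (10.8-fold), Neu4 9.79-fold and C1ql1, a secreted C1q-like protein, 9.24-fold.

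SFN-fed cKOAstro replicate 4, an Astro-named library, held the highest level of the 23 libraries for 24 of the 26 oligodendrocyte genes. Its median level over the 26 genes was 1.88-fold of each gene's median, and the next highest library, SFN-fed cKOAstro replicate 2, was at 1.15-fold. In SFN-fed cKOAstro replicate 4, Mag stood at 4180.3 CPM against a highest value of 2460.0 CPM elsewhere, and Cnp at 6568 against 3851 CPM. The exceptions were Enpp2, higher in ConAstro replicate 2, and Nfasc, which gives the neurofascin that anchors paranodal loops, at 1151 CPM there and 1155 CPM in SFN-fed cKOAstro replicate 5. The 7 precursor genes did not share this: all 7 were below their medians in the same library, at 0.676-fold. Summed, the 7 genes stood at 123 CPM there, against a median of 227 CPM over the 23 libraries. The sum of a list of 13 other precursor genes went the other way, at 972 CPM there, the highest of the 23. A sum follows the most abundant genes of a list, and levels of the single genes among the 13 are not given for this library. A list of 11 genes of the committed stage was also highest there, at 1081 CPM. The astrocyte list of this library summed to 20066 CPM, the lowest of the 23, and its lists for mural cells (876 CPM) and fibroblasts (154 CPM) were also the lowest. Their part in the myelin levels was not tested.

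**Figure D1:**
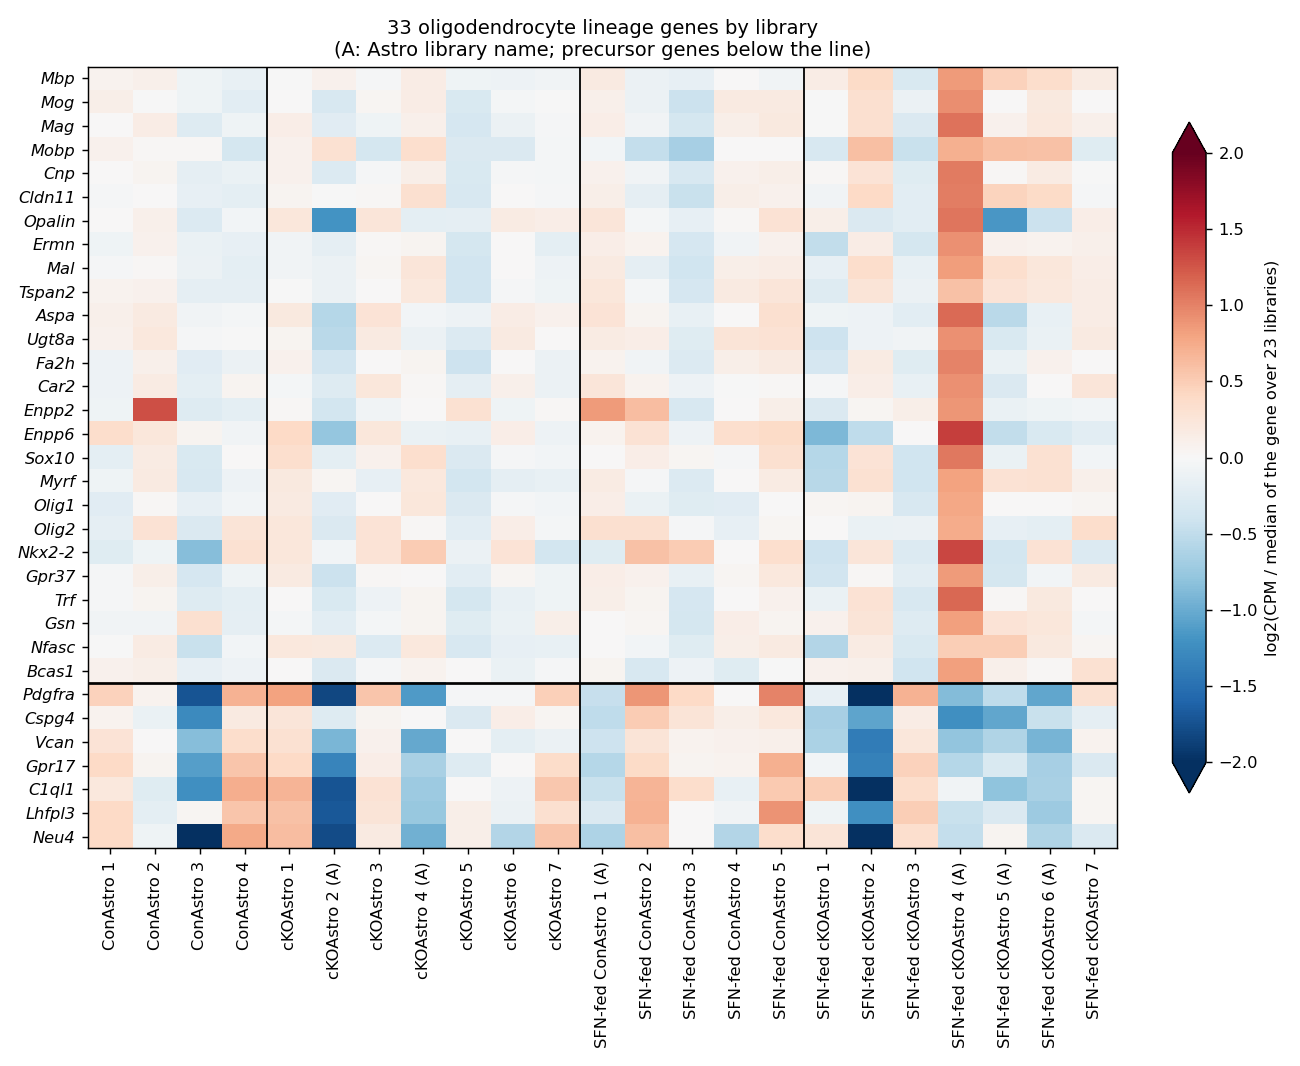
Level of each of the 33 genes (rows, precursor genes below the thick line) in each of the 23 libraries (columns, in the 4 groups, A marking an Astro name), as the log2 of CPM over the median of the gene. SFN-fed cKOAstro replicate 4 is high for the 26 oligodendrocyte genes (1.88-fold of the median) and low for the 7 precursor genes (0.676-fold), and the precursor rows are lowest in cKOAstro replicate 2 (0.309-fold) and SFN-fed cKOAstro replicate 2 (0.380-fold).

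The median level of the 7 precursor genes was lowest in cKOAstro replicate 2 at 0.309-fold of the median, SFN-fed cKOAstro replicate 2 at 0.380-fold and ConAstro replicate 3 at 0.427-fold. SFN-fed cKOAstro replicate 2 held the lowest value of all libraries for 5 of the 7 genes, and in it 886 reads of Pdgfra and 80 of C1ql1 were counted. The highest precursor medians were in SFN-fed ConAstro replicate 2 (1.52-fold), cKOAstro replicate 1 (1.49-fold) and ConAstro replicate 4 (1.47-fold). These low and high libraries came from all 4 groups. Members differed within a library: in ConAstro replicate 3 Lhfpl3 was at 1.03-fold and Neu4 at 0.183-fold of their medians, and in cKOAstro replicate 2 Cspg4 was at 0.840-fold and Pdgfra at 0.284-fold. The oligodendrocyte genes of the 3 libraries lowest in precursor genes were at 0.846-fold, 1.15-fold and 0.884-fold in the same order.

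**Figure D2:**
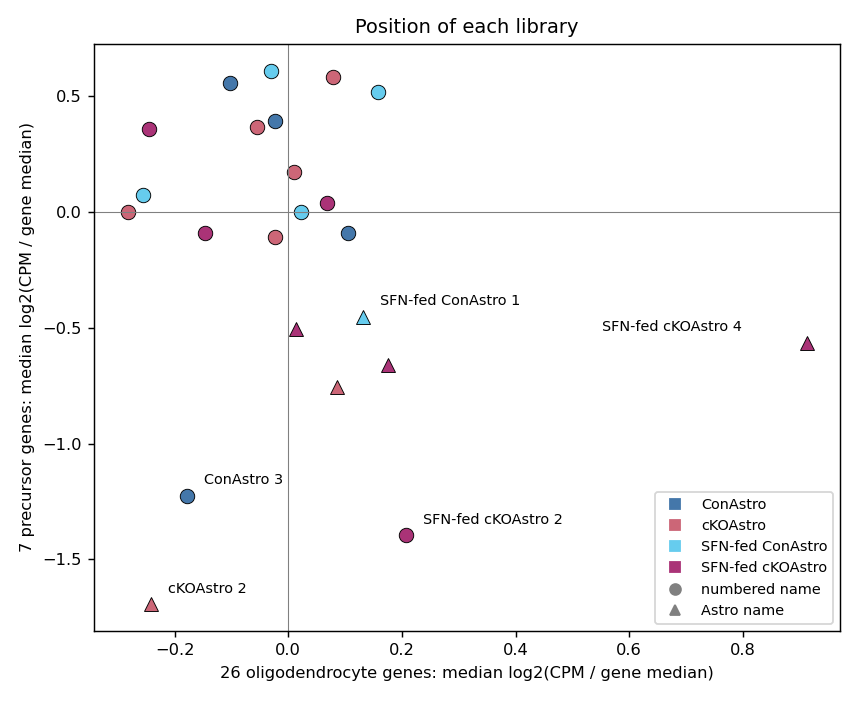
Each point is 1 library, placed by the median log2 of CPM over the gene median of the 26 oligodendrocyte genes (horizontal) and of the 7 precursor genes (vertical), with colours for the 4 groups and triangles for Astro names. All 6 Astro-named libraries lie below 0 on the vertical axis, and SFN-fed cKOAstro replicate 4 stands alone at the right, at 0.91.

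Loss of ALDH7A1 on the control diet was compared first, cKOAstro against ConAstro. Structural myelin genes were alike in level: Mbp was at 3327, 3409.7, 2972 and 2864 CPM in the 4 ConAstro libraries, and its lowest, median and highest values in the 7 cKOAstro libraries were 2938, 3109 and 3528 CPM. Mog was at 581, 536, 503 and 465 CPM in ConAstro and at 429, 534 and 596 CPM (lowest, median, highest) in cKOAstro. Cnp was at 3181, 3301, 2818 and 2905 CPM in ConAstro and at 2573, 3119 and 3463 CPM in cKOAstro. For each of these genes the groups overlapped.

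Opalin, a transmembrane protein of late oligodendrocytes, held 170.1, 183, 140.2 and 163 CPM in ConAstro and 74.3, 186 and 200.4 CPM (lowest, median, highest) in cKOAstro, the lowest being replicate 2. Among the regulators, Sox10 was at 297, 381, 276 and 342 CPM in ConAstro and at 279, 333 and 429 CPM in cKOAstro. Myrf, which switches on myelin genes, was at 568, 679.8, 482 and 559 CPM against 468, 542 and 700.0 CPM. Olig2, needed for entry into the lineage, was at 172, 237, 159 and 233 CPM against 158, 197 and 234 CPM, again with full overlap.

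Pdgfra held 50.9, 38.9, 11.1 and 59.9 CPM in ConAstro and 10.45, 36.4 and 64.4 CPM (lowest, median, highest) in cKOAstro. Cspg4 held 125, 109, 49.2 and 135 CPM against 97.1, 123 and 141 CPM. Gpr17, a receptor of the committed stage, held 42.5, 33.7, 15.1 and 47.6 CPM against 13.0, 32.4 and 42.6 CPM. In each case ConAstro replicate 3 was the low library of its group.

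None of the 33 genes was called by the quasi-likelihood test of edgeR (adjusted p under 0.05), against 0.0230% of 17406 genes tested, and none reached an unadjusted p under 0.05, against 3.74%. DESeq2 and limma-voom also called none. The median log2 fold change was -0.02 for the 26 oligodendrocyte genes and -0.12 for the 7 precursor genes, beside -0.01 for all genes tested. The lowest p values belonged to Nkx2-2, a homeodomain factor of the lineage (log2 fold change 0.29 ± 0.21 SE, adjusted p = 0.981), Enpp2, which gives the lysophospholipase autotaxin (-0.37 ± 0.27), and Ugt8a, which makes galactosylceramide (-0.13 ± 0.12). Leaving out ConAstro replicate 3 lowered Nkx2-2 to 0.11 and leaving out replicate 4 raised it to 0.49, and Ugt8a was -0.06 without cKOAstro replicate 2. The direction of the precursor genes turned with the libraries used: with numbered libraries only their median was 0.20, and 7 of 7 were positive instead of 1 of 7, while without ConAstro replicate 3 it was -0.39, without ConAstro replicate 4 it was 0.19 and without cKOAstro replicate 2 it was 0.05. In no pair of groups did the libraries of any of the 33 genes fail to overlap, against 0.529% of genes tested here, 1.18% for SFN-fed cKOAstro against SFN-fed ConAstro, 2.04% for SFN-fed ConAstro against ConAstro, 0.0947% for SFN-fed cKOAstro against cKOAstro and 1.16% for SFN-fed cKOAstro against ConAstro.

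Enpp2 is also made by choroid plexus epithelium, and its levels had a pattern of their own. It stood at 3493 CPM in ConAstro replicate 2, 2627 in SFN-fed cKOAstro replicate 4, 2582 in SFN-fed ConAstro replicate 1 and 2202 in SFN-fed ConAstro replicate 2. In the other libraries it was between 1107 and 1762 CPM. The choroid plexus list of 7 genes summed to 4359, 10.8, 3528 and 2284 CPM in those 4 libraries in the same order, and to at most 1881 CPM elsewhere. In 3 of them high Enpp2 went with the highest choroid plexus sums, while in SFN-fed cKOAstro replicate 4 the sum was the lowest of all. Without ConAstro replicate 2 the fold change of Enpp2 between cKOAstro and ConAstro turned from -0.37 to 0.16 ± 0.12 (adjusted p = 0.999).

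Under SFN the genotypes were compared as SFN-fed cKOAstro against SFN-fed ConAstro. By edgeR none of the 33 genes was called. The median difference of the 26 oligodendrocyte genes was 0.13 on the log2 scale, but 0.02 without SFN-fed cKOAstro replicate 4, and that of the 7 precursor genes was -0.52. Mbp was at 3592, 2911, 2829, 3168 and 3020.5 CPM in SFN-fed ConAstro and at 2575, 4063 and 5743 CPM (lowest, median, highest) in SFN-fed cKOAstro. Mobp, an abundant basic protein of compact myelin, was at 1007, 752, 657, 1050.1 and 1044 CPM against 767, 1569 and 1703 CPM. The SFN-fed cKOAstro libraries split in Mobp: replicates 2, 4, 5 and 6 held 1569 to 1703 CPM and replicates 1, 3 and 7 held 767 to 881 CPM, within the range of the controls.

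The other myelin and regulator genes overlapped throughout. Mog was at 573, 493, 396, 609 and 607 CPM against 492, 541 and 1021 CPM. Cnp was at 3375, 3037, 2541, 3389.6 and 3468 CPM against 2689.7, 3248 and 6568 CPM. Opalin was at 200.3, 166, 152, 174 and 209 CPM against 75.5, 147 and 356 CPM, so that the lowest and the highest library were both SFN-fed cKOAstro. Sox10 was at 340.0, 373, 351, 333 and 423 CPM against 229, 329 and 708 CPM. Myrf was at 671, 589.5, 500.4, 602 and 677 CPM against 411, 735 and 1048 CPM. Olig2 was at 242, 242, 191, 174 and 198 CPM against 168, 179.7 and 324 CPM, and the highest SFN-fed cKOAstro value of every gene in this paragraph was that of replicate 4.

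Cspg4 had the clearest difference of the precursor genes, at 83.6, 169, 143, 129 and 138 CPM in SFN-fed ConAstro and 51.0, 74.7 and 131 CPM (lowest, median, highest) in SFN-fed cKOAstro. Pdgfra was at 26.9, 68.1, 48.6, 36.8 and 73.5 CPM against 6.80, 25.96 and 59.9 CPM. Gpr17 was at 21.8, 42.4, 33.8, 33.8 and 53.2 CPM against 12.7, 26.1 and 44.6 CPM. Groups overlapped in each, with SFN-fed ConAstro replicate 1 the lowest control.

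Cspg4 had a log2 fold change of -0.71 ± 0.24 (adjusted p = 0.195), Mbp of 0.36 ± 0.16 (adjusted p = 0.242) and Mobp of 0.49 ± 0.23 (adjusted p = 0.252). With edgeR 0 of 33 genes were called, as were 0 of the 16672 genes tested, and 2 of 33 (Cspg4 and Mbp) reached an unadjusted p under 0.05, against 20.3% of all genes, 11.4% higher and 8.89% lower. DESeq2 called none of the 33, while limma-voom with sample quality weights called 8 (Mbp higher, Enpp6 lower and 6 precursor genes lower) among 4398 genes, 26.4% of those tested. When replicate 3 of SFN-fed cKOAstro was left out, 701 genes passed in edgeR, with Cspg4 the 1 gene of the 33 among them. Of the 7 precursor genes 0 had a fold change above 0, and the median over all genes was 0.01. The precursor median was -0.49 without SFN-fed cKOAstro replicate 4, and with numbered libraries only the oligodendrocyte and precursor medians were -0.02 and -0.51. Without that library and without both libraries that go against their Aldh7a1 label, the medians were 0.01 and -0.45.

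Other genes of the lineage, from lists not used to choose the 33, were read in the same fit. Of 29 further myelin genes none was called, and their median log2 fold change was 0.21. These too were highest in SFN-fed cKOAstro replicate 4, with a sum of 54045 CPM against at most 30955 CPM in any other library. Of 13 further precursor genes none was called either, 3 reached an unadjusted p under 0.05 (23.1%, against 20.3% of all genes), all lower, and the median was -0.15. Xylt1, a xylosyltransferase that starts proteoglycan chains such as those of NG2, was at 31.8 CPM in SFN-fed cKOAstro and 58.5 CPM in SFN-fed ConAstro on average (log2 fold change -0.88 ± 0.30, adjusted p = 0.195), and Sox6, a factor that holds precursors undifferentiated, was at 44.5 and 57.4 CPM (-0.37 ± 0.14, adjusted p = 0.204). Lists of other cell types moved in the same comparison: the medians were -0.69 for 10 fibroblast genes, -0.45 for 10 mural genes, -0.74 for 12 endothelial genes, -0.49 for 12 microglial genes and -2.18 for 7 choroid plexus genes, with none of their genes called. Pdgfra is also a fibroblast gene and Cspg4 a mural one. The fibroblast list summed to 257 ± 67.9 CPM (SD, n = 7) in SFN-fed cKOAstro and 362 ± 38.8 CPM (n = 5) in SFN-fed ConAstro, and the mural list to 1373 ± 415 and 1991 ± 323 CPM. The part of these cells in the precursor genes was not tested.

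**Figure D3:**
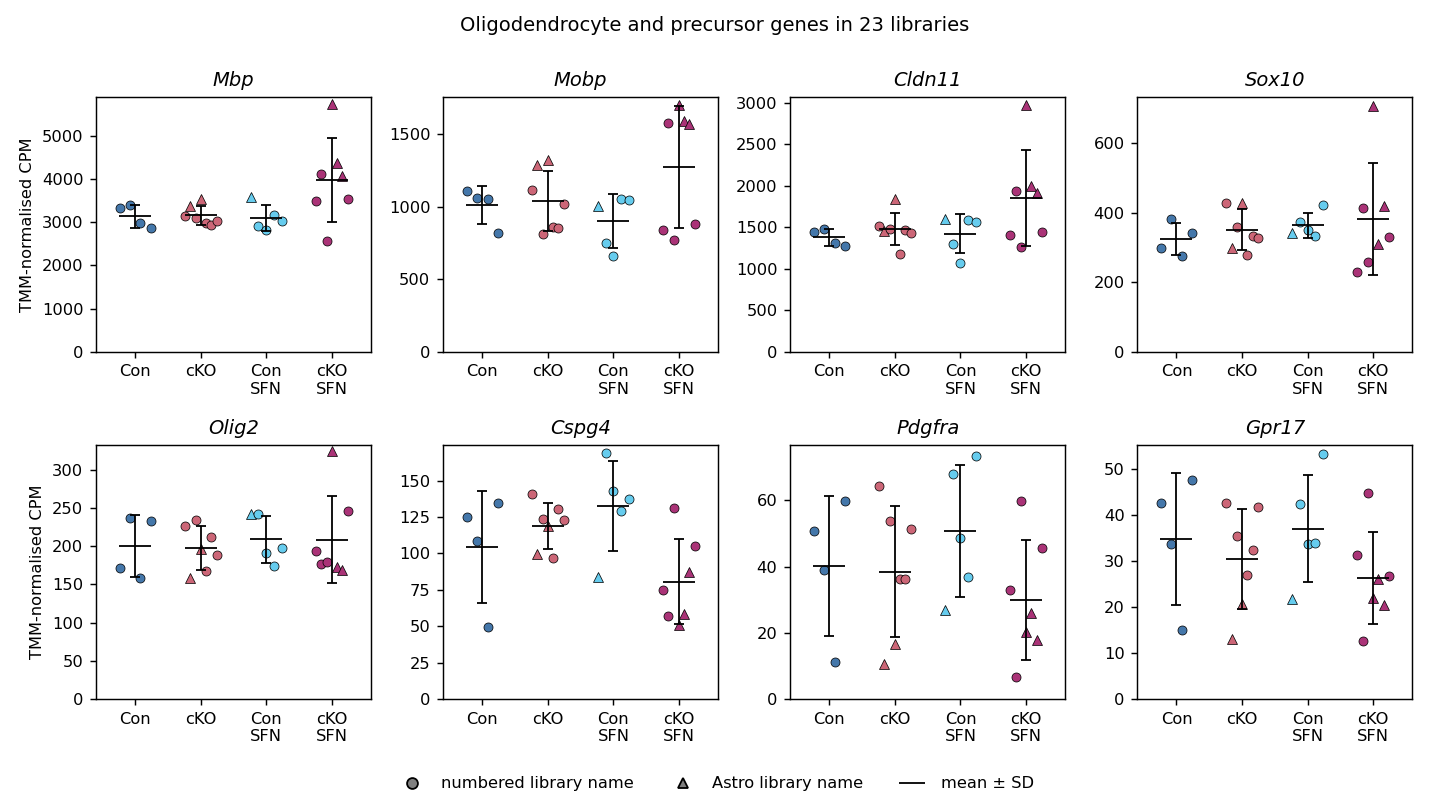
CPM of 8 genes in each library (points, triangles for Astro names) by group, with the group mean and SD as lines, from 0 on each vertical axis. Mobp splits SFN-fed cKOAstro into libraries at 767 to 881 CPM and at 1569 to 1703 CPM, and the 8 lowest Pdgfra values (6.80 to 26.9 CPM) belong to the 6 Astro-named libraries, ConAstro replicate 3 and SFN-fed cKOAstro replicate 2.

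The effect of the diet was compared within each genotype. In controls, SFN-fed ConAstro against ConAstro, no gene of the 33 was called or reached an unadjusted p under 0.05 by edgeR, against 0 called and 6.54% at an unadjusted p under 0.05 among 16509 genes tested. DESeq2 and limma-voom called none of the 33. Nkx2-2 was at 13.6, 24.2, 22.9, 16.1 and 20.3 CPM with SFN and at 13.6, 15.1, 8.86 and 19.8 CPM without (log2 fold change 0.44 ± 0.24, adjusted p = 0.788). Sox10 differed by 0.17 ± 0.10 (adjusted p = 0.815) and Gpr37, a receptor of maturing oligodendrocytes, by 0.15 ± 0.10 (adjusted p = 0.826). Without ConAstro replicate 3 the 3 fold changes were 0.26 for Nkx2-2, 0.09 for Sox10 and 0.06 for Gpr37. The medians were 0.07 for oligodendrocyte genes and 0.10 for precursor genes, beside -0.0055 for all genes, and leaving out ConAstro replicate 3 turned the precursor median to -0.03, while leaving out replicate 4 raised it to 0.35. Lists of other cell types moved here as well, with none of their genes called. The median was 0.43 for 10 fibroblast genes and 0.32 for 10 mural genes, all of them above 0. At an unadjusted p under 0.05 there were 7 fibroblast and 3 mural genes. The median was 0.57 for 12 endothelial genes and -0.07 for 7 choroid plexus genes. The part of all these cells in the precursor values was not tested.

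In knockouts, SFN-fed cKOAstro against cKOAstro, the log2 fold change was above 0 for 26 of 26 oligodendrocyte genes and below 0 for 7 of 7 precursor genes, yet none was called by edgeR, DESeq2 or limma-voom. By edgeR 0 of 16903 genes were called. At an unadjusted p under 0.05 there were 4 of 33, against 10.9% of all genes (5.38% higher and 5.50% lower): Mbp (0.35 ± 0.14), Mal (0.31 ± 0.14) and Gsn, an actin-severing protein (0.31 ± 0.13), were higher and Cspg4 (-0.55 ± 0.19) lower, each with adjusted p = 0.459. Lists of other cell types moved in this comparison too, with none of their genes called. The median was -0.39 for 10 mural genes (5 lower at an unadjusted p under 0.05) and -0.36 for 10 fibroblast genes (1 lower at that p). It was 0.34 for 12 endothelial genes and 0.14 for 13 genes of the dissociation response (2 higher at that p). For 7 choroid plexus genes it was -0.65, with all 7 below 0. The part of all these lists in the values of the 33 genes was not tested. Gsn was at 537, 618 and 689 CPM (lowest, median, highest) in cKOAstro and 535, 747 and 1128 CPM in SFN-fed cKOAstro, and Mal at 1686, 2082 and 2594 against 1957, 2552 and 3911 CPM. The oligodendrocyte median was 0.24 and rested on SFN-fed cKOAstro replicate 4, since without it the median was 0.07 and 17 of 26 were above 0. With numbered libraries only the median was -9.8e-05, with 13 of 26 above 0, and the precursor median was -0.36. The precursor median was -0.22 with all libraries and -0.08 without SFN-fed cKOAstro replicate 2.

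SFN-fed cKOAstro was also compared with ConAstro, the untreated control. None of the 33 genes was called by edgeR, DESeq2 or limma-voom and none reached an unadjusted p under 0.05 by edgeR, against 0 called and 8.67% at that p among 16753 genes. Cldn11 had the lowest p: it was at 1439, 1481, 1312 and 1275 CPM in ConAstro and at 1263, 1915 and 2973 CPM (lowest, median, highest) in SFN-fed cKOAstro (log2 fold change 0.42 ± 0.21, adjusted p = 0.557). Mal (0.33 ± 0.17) and Mbp (0.34 ± 0.18) came next, both with adjusted p = 0.562. The medians were 0.22 for oligodendrocyte genes, 0.07 without SFN-fed cKOAstro replicate 4, and -0.41 for precursor genes, which became -0.65 without ConAstro replicate 3 and -0.20 without ConAstro replicate 4. This comparison shares its libraries with those above.

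Whether the genotype difference depended on the diet was tested as an interaction over all 4 groups. By edgeR 0 of 33 genes were called, as were 0 of 17302 tested. Cspg4 had the lowest p, with a difference of log2 fold changes of -0.90 ± 0.35 (adjusted p = 0.673), and was the only one of the 33 with an unadjusted p under 0.05, against 7.32% of all genes. Its mean CPM was 104 ± 38.4 (SD, n = 4) in ConAstro and 119 ± 15.7 (n = 7) in cKOAstro, and with SFN 132 ± 31.0 (n = 5) in ConAstro and 80.7 ± 29.4 (n = 7) in cKOAstro. In the same interaction 10 of 10 mural genes (median -0.62) and 10 of 10 fibroblast genes (median -0.80) were below 0, with 5 of each at an unadjusted p under 0.05 and none called, and their part in the value of Cspg4 was not tested. Mbp (0.35 ± 0.18) and Bcas1, a gene of newly formed myelinating cells (0.35 ± 0.19), followed with adjusted p = 0.680. DESeq2 and limma-voom called none of the 33. The median was 0.14 for oligodendrocyte genes and -0.31 for precursor genes, and without SFN-fed cKOAstro replicate 4 it was -0.0045 and -0.26.

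**Figure D4:**
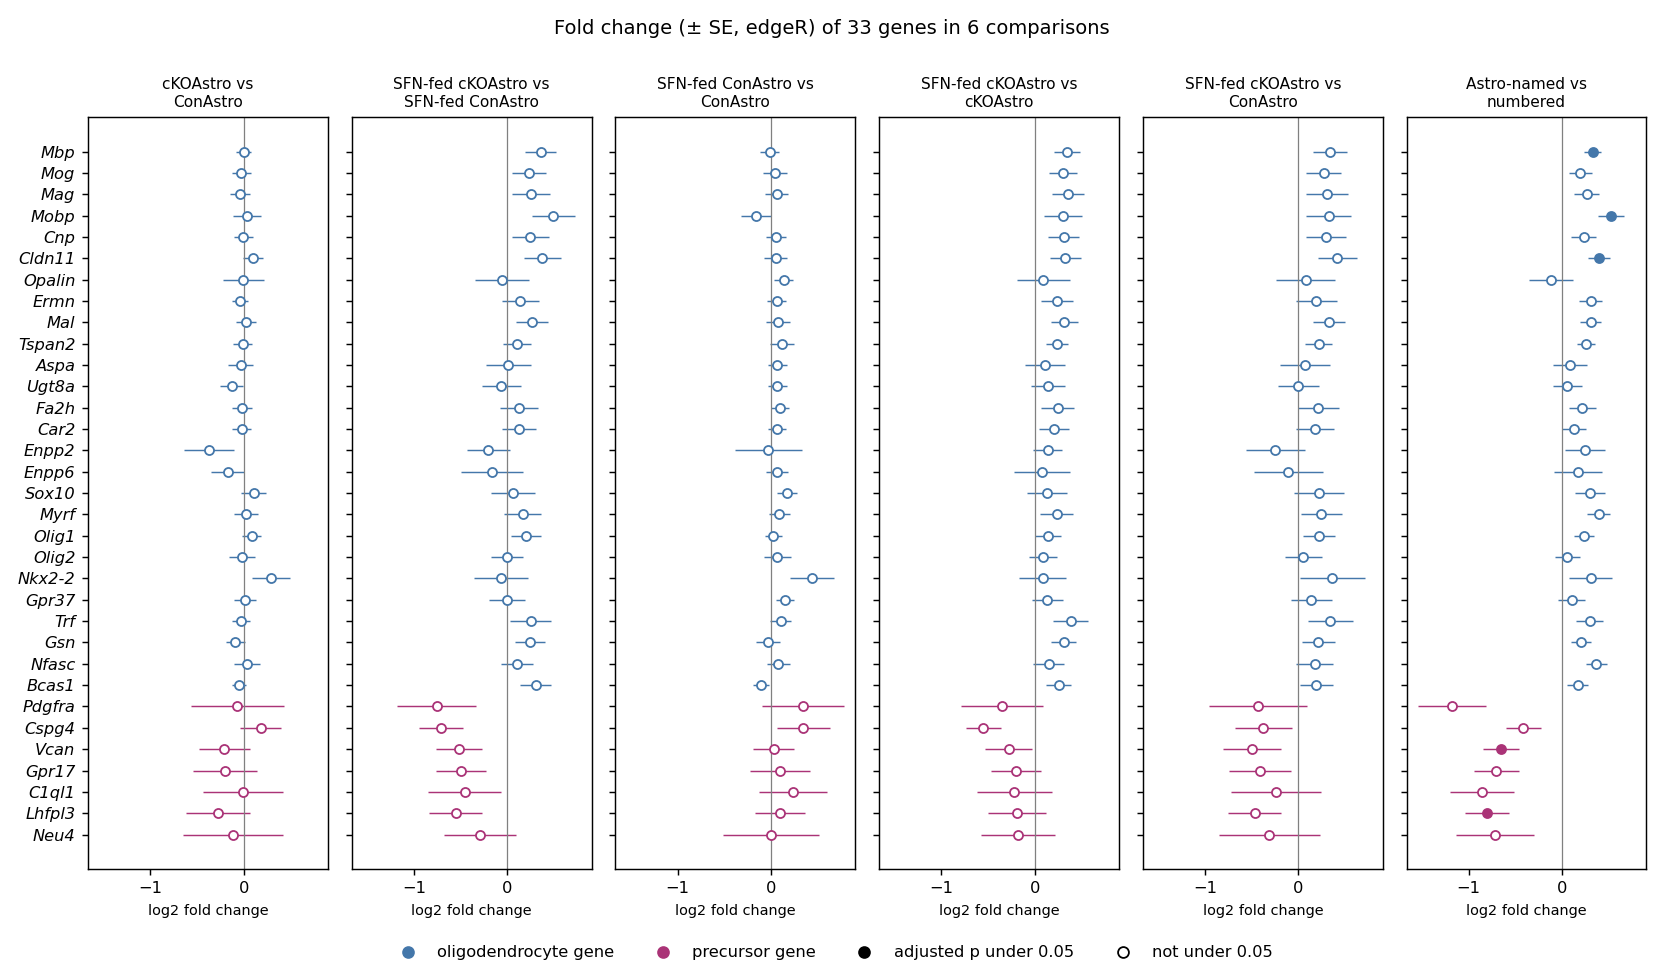
Log2 fold change (points) ± SE (lines) of the 33 genes from edgeR in 6 comparisons, with oligodendrocyte genes in blue, precursor genes in purple and filled points for adjusted p under 0.05. Filled points occur only in the last panel, Astro-named against numbered libraries, for Mbp, Mobp, Cldn11, Vcan and Lhfpl3.

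The kind of library name was the 1 contrast in which edgeR called genes of the lineage with all libraries in. With group as a covariate, Astro-named libraries were higher in Mobp, Mbp and Cldn11 and lower in Vcan and Lhfpl3: 5 of 33 were called, against 5.85% of 18107 genes tested (3.44% higher and 2.41% lower). At an unadjusted p under 0.05 there were 10 oligodendrocyte genes, all higher, and 6 precursor genes, all lower, against 23.6% of all genes (12.6% higher and 11.1% lower). None of the 33 was free of overlap, against 0.0221% of all genes. The medians were 0.24 for oligodendrocyte genes and -0.72 for precursor genes, beside 0.02 for all genes.

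Mobp was at 1286 and 1321 CPM in the Astro-named cKOAstro libraries, 1007 CPM in the SFN-fed ConAstro one, and 1703, 1590.2 and 1569 CPM in the SFN-fed cKOAstro ones. The 17 numbered libraries held between 657 and 1578 CPM, the highest being SFN-fed cKOAstro replicate 2 and the next 1112 CPM. The fold change was 0.52 ± 0.14 (log2, adjusted p = 0.033). Mbp (0.33 ± 0.09, adjusted p = 0.037) was at 3366, 3528, 3592, 5743, 4377 and 4063 CPM in the Astro-named libraries, and Cldn11 (0.39 ± 0.12, adjusted p = 0.047) at 1454, 1839, 1597, 2973, 1997 and 1915 CPM. Numbered libraries overlapped with both. Opalin went the other way, at -0.12, with 74.3 and 75.5 CPM in cKOAstro replicate 2 and SFN-fed cKOAstro replicate 5 and 356 CPM in SFN-fed cKOAstro replicate 4.

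Vcan, a chondroitin sulfate proteoglycan of the precursor surface and its matrix, was at 17.8, 16.5, 25.1, 19.4, 22.0 and 17.6 CPM in the Astro-named libraries (-0.65 ± 0.19, adjusted p = 0.047). Numbered libraries held 12.7 CPM (SFN-fed cKOAstro replicate 2), 18.5 CPM (ConAstro replicate 3), 21.6 CPM (SFN-fed cKOAstro replicate 1) and otherwise 29.2 to 42.5 CPM. Lhfpl3, a tetraspan membrane protein, was at 1.67, 3.21, 4.43, 3.96, 4.44 and 3.26 CPM (-0.80 ± 0.24, adjusted p = 0.049) and, apart from 2.31 CPM in SFN-fed cKOAstro replicate 2, at 4.73 to 10.1 CPM in the numbered ones. Pdgfra had the largest fold change of the 33 but was not called (-1.18 ± 0.37, adjusted p = 0.057). It was at 10.45, 16.7, 26.9, 20.3, 25.96 and 17.9 CPM in Astro-named libraries, and its only numbered libraries below 32.9 CPM were SFN-fed cKOAstro replicate 2 and ConAstro replicate 3.

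Further genes of the lineage were read in the same fit, in which 5.85% of all genes were called. Of 29 other myelin genes 2 were called (6.90%), both higher: Hapln2, a link protein of the node of Ranvier (0.65 ± 0.14, adjusted p = 0.019), and Anln, an actin-binding protein that organises septins (0.63 ± 0.14, adjusted p = 0.020), and 29 of 29 had a fold change above 0. The 29 genes summed to 54045 CPM in SFN-fed cKOAstro replicate 4, an Astro-named library, and to at most 30955 CPM elsewhere. No fit without that library was read for them. Of 13 other precursor genes 4 were called, all lower, among them the calcium channel subunit Cacng4 (-0.44 ± 0.12, adjusted p = 0.042). Of 11 genes of the committed stage none was called, 1 reached an unadjusted p under 0.05, and their median was 0.04.

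Other cells also differed by library name. The 12 microglial genes had a median log2 fold change of -1.44, and 12 of 12 reached an unadjusted p under 0.05 with none called (lowest adjusted p = 0.054). Their sum was 355 to 648 CPM in 5 of the Astro-named libraries and 3303 CPM in SFN-fed ConAstro replicate 1, and 398 to 3877 CPM in numbered ones, the lowest being SFN-fed cKOAstro replicate 2. Of 10 fibroblast genes 3 were called, all lower, of 12 neuronal genes 1, higher, and of 13 dissociation genes 2, higher, where 5.85% of all genes were called. Of 12 endothelial genes 11 were below 0, 6 of them at an unadjusted p under 0.05 and none called. Without regard to group, the astrocyte list summed to 25876 ± 3721 CPM (SD, n = 6) in Astro-named and 30635 ± 4244 CPM (n = 17) in numbered libraries. The mural list summed to 1428 ± 424 and 1787 ± 330 CPM in the same order. The part of these cells in the values above was not tested.

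The calls were not stable. Leaving out 1 library at a time gave 0 to 10 called genes, with 0 without any 1 of cKOAstro replicates 2 to 6 or of SFN-fed cKOAstro replicates 3, 5, 6 and 7, and 10 without SFN-fed cKOAstro replicate 2. Without SFN-fed cKOAstro replicate 4, Mobp and Lhfpl3 were called, the oligodendrocyte median was 0.07 and the precursor median -0.76. Leaving out both libraries that go against their Aldh7a1 label gave 10, as did DESeq2, in each case Mbp, Mobp, Cldn11, Myrf and Nfasc higher and Pdgfra, Vcan, Gpr17, C1ql1 and Lhfpl3 lower. When SFN-fed cKOAstro replicate 4 was left out as well there were 12, the added ones being Opalin (-0.76 ± 0.16) and Aspa, which cleaves N-acetylaspartate (-0.37 ± 0.11), both lower in Astro-named libraries. The precursor median was below 0 under each of these settings.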

How the data were processed

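RNA was measured in 23 libraries of MACS-isolated cortical astrocytes. Polyadenylated RNA was prepared with a kit that does not mark strand, so reads of Cnp, Ermn, Tspan2, Nkx2-2, Nfasc, Bcas1, Gpr17 and Lhfpl3 cannot be told from those of genes that overlap them on the other strand. Alignment was to mm10 with STAR, whose gene count option gave the deposited values, whole-number counts per symbol with no normalization by the authors. Versions and the annotation are not given in the sources used here.

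The main test was the quasi-likelihood test in edgeR 4.0.16 (R 4.3.3, limma 3.58.1) after TMM scaling and filterByExpr (minimum count 10, minimum total 15). Each pair of groups was fitted alone, and the interaction and the library names on all 4 groups. P-values are two-sided and adjusted by Benjamini-Hochberg across the whole table, and called under 0.05. Fold changes are log2 ± SE and levels are TMM-scaled CPM. Libraries of 1 group never matched within sampling noise (chi-square over degrees of freedom at least 42.4), a check for repeat sequencing of 1 library only. It cannot tell separate mice from separate preparations of 1 mouse. Each library was counted as 1 replicate. Exon lengths came from GENCODE M21, with all annotated exons of a gene joined. At these depths 3 counts equal 0.008 to 0.064 CPM, a limit of counting error only, since reads are not independent molecules.

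DESeq2 1.42.0, limma-voom, RLE scaling, no filter, all groups in 1 fit, a replicate block, library names and the leaving out of libraries were alternatives. Leaving out SFN-fed cKOAstro replicate 4 together with both libraries against their Aldh7a1 label was added after the data were seen. Scripts were tested on simulated data. For 10 genes values were given for each library in the groups of 4 and 5, and as lowest, median and highest in the groups of 7. For the 3 genes with the lowest p of each comparison fold changes were given, with levels for some of them. The 33 genes and all lists were chosen with earlier results of these data known.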

Additional observations from a re-analysis of the deposited data

Results flagged for a closer look

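Among 140 values tested within groups, 23 had a highest or lowest library whose gap to the others was large against the range of the group (Dixon's 95% limit), where chance flags about 1 in 20 groups. Of these, 20 were SFN-fed cKOAstro replicate 4 as the highest of its group: the summed 26 oligodendrocyte genes (49481 CPM), Cnp (6568), Trf (6218), Mag (4180.3), Mal (3911), Cldn11 (2973), Enpp2 (2627), Car2 (2263), Gpr37 (1393), Olig1 (1298), Gsn (1128), Ermn (1046), Mog (1021), Ugt8a (853), Fa2h (816), Sox10 (708), Opalin (356), Aspa (269.7), Enpp6 (84.8) and Nkx2-2 (40.3). The values belong to 1 library and are not independent of each other. None of its precursor genes stood apart in this way.

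The other 3 were Enpp2 in ConAstro replicate 2 (3493 CPM, highest), Trf in SFN-fed ConAstro replicate 3 (2238 CPM, lowest) and Opalin in cKOAstro replicate 2 (74.3 CPM, lowest).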

How the results depend on the processing

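For cKOAstro against ConAstro, both diet comparisons, SFN-fed cKOAstro against ConAstro and the interaction, 0 of 33 genes were called under every alternative run. SFN-fed cKOAstro against SFN-fed ConAstro went from 0 to 8 with limma-voom, and leaving out 1 library gave 0 to 1. For Astro-named against numbered libraries the count of 5 became 10 with DESeq2, 8 with limma-voom, 2 without the filter, 10 without both libraries against their Aldh7a1 label, 12 when SFN-fed cKOAstro replicate 4 was left out too, 1 with the cKOAstro groups only, and 0 to 10 without 1 library. The cause was not tested. Enpp2 in cKOAstro against ConAstro ran from -0.53 to 0.16 without 1 library, and reversed to 0.16 without ConAstro replicate 2.

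With the replicate block the count by library name was 0. Same-numbered libraries showed no clear shared deviation: correlations ran from -0.21 to 0.34, and at most 1 library per comparison matched its own number best. With 4 to 7 pairs per comparison this cannot exclude a pairing. The first number of the library names was not tested. The block changed no other count of called genes.

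Limits: names and groups are unevenly crossed, ConAstro has 4 libraries and no Astro name, and Neu4 and C1ql1 rest on the fewest reads, down to 78 and 80 in a library.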

Other observations

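Bmp4, a gene of committed oligodendrocytes and not among the 33, was the 1 gene of the 11 on that list whose libraries did not overlap in the control diet comparison. Its mean was 4.21 CPM in cKOAstro and 2.82 CPM in ConAstro (log2 fold change 0.57 ± 0.16, adjusted p = 0.981), where 0.529% of genes tested did not overlap. It did not overlap either between SFN-fed ConAstro (4.36 CPM) and ConAstro (0.63 ± 0.19, adjusted p = 0.762), where the share was 2.04%. Both contrasts use the same 4 ConAstro libraries. The list as a whole did not share this. In the control diet comparison 3 of its 11 genes were above 0 and 8 below, with a median of -0.06. For SFN-fed ConAstro against ConAstro 6 were above 0 and 5 below, with a median of 0.01. The interaction was -0.94 ± 0.26 (adjusted p = 0.673).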
